A study of Mus musculus with 19 samples.

Results

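The genes described here respond to hypoxia-inducible factors in many cell types and act outside glycolysis: Ero1a, P4ha1, Gys1, Ak4, Higd1a, Ddit4, Mxi1, Nfil3, Kdm4b and Narf. They were taken as the probes whose single gene symbol was one of these names, which gave 12 of the 20205 probes and 10 of 9834 genes. Kdm4b and Higd1a had 2 probes each and the other 8 genes had 1 probe. All 10 genes had enough values to be tested in every comparison.

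RNA was compared on 19 two-colour arrays. The cells were FDCPmix, a line of mouse blood progenitors dependent on interleukin-3, although the titles call it an ES cell line without saying why. The treated group held 4 arrays of treated FDCPmix cells with no stated time, each set against non-treated FDCPmix cells. The time course held treated FDCPmix cells at 3 h, 7 h and 12 h (4 arrays each) and at 23 h (3 arrays: replicates 1, 3 and 4) after tamoxifen, each set against treated FDCPmix cells at 0 h. Tamoxifen is a ligand of the oestrogen receptor that is often used to switch on receptor fusion proteins; whether these cells carry one is not given in the sources used here, nor is the treatment of the treated group beyond that word. The labels do not say that replicates came from separate cultures, so p-values measure only the spread between these arrays, which may be technical. All 4 times share the 0 h reference, whose own spread is left out of every test against it. A ratio gives no level, so the defining markers of the line could not be checked for presence.

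Values are log ratios, log2 if the deposited base is 2, of the labelled sample to its reference, if the deposited sign is that way round; neither is given in the sources used here. A value below 0 therefore means lower in treated cells only under this assumed direction. Both dyes were used in each group; below, the treated sample means the cells at the stated time and never the 0 h reference. On each array 1 extreme value recurred, from 16.276 to 17.031 where the treated sample was in Cy5 and from -16.725 to -16.235 where it was in Cy3, except on 7 h replicate 4, where it was 16.291 with the sample in Cy3. The deposited column of 23 h replicate 3 had a median of 0.233, against at most 0.024 in size on the other 18 arrays. These 2 arrays are called the arrays in doubt, and the members' counts and called values are given with and without them. The SD over spots was 0.619 to 0.642 on the treated arrays and 0.235 to 0.360 in the time course, so the treated arrays were fitted alone. Between 19629 and 20147 spots per array had a value, and precision is limited by how many arrays there were.

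In oxygenated cells, prolyl hydroxylases mark the alpha subunits of hypoxia-inducible factors for capture by the von Hippel-Lindau protein and destruction. When oxygen is low, the alpha subunit persists, pairs with ARNT and binds short DNA motifs, the hypoxia response elements, near its targets. The targets followed here work in protein oxidation, collagen modification, glycogen and mitochondrial metabolism, growth control and transcription rather than in sugar breakdown.

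The 250 bases upstream of the start in RefSeq (GRCm38.p6) are printed for Ero1a, Ddit4, Higd1a, Gys1 and P4ha1. They show what sequence lies before 4 genes that some fits called and before P4ha1, which no fit called. They are written 5′ to 3′ along the gene's strand, with ACGTG or GCGTG, the core letters of the hypoxia response element, in capitals, also where they lie on the opposite strand (CACGT and CACGC as printed). Ero1a lies at chr14:45318573-45318822 on the minus strand, Ddit4 at chr10:59951771-59952020 on the minus strand and Higd1a at chr9:121857797-121858046 on the minus strand. Gys1 lies at chr7:45434589-45434838 on the plus strand and P4ha1 at chr10:59323046-59323295 on the plus strand.
Ero1a: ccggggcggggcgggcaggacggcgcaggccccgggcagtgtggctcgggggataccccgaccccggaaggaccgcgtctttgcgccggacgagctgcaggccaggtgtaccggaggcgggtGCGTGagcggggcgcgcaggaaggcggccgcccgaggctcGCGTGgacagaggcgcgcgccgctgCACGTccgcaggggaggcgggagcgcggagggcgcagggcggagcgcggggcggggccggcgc
Ddit4: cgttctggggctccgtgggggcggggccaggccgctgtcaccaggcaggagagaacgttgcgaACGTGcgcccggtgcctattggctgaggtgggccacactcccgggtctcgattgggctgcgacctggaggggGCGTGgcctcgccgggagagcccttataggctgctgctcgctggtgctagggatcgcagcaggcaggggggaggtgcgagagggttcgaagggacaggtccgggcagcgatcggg
Higd1a: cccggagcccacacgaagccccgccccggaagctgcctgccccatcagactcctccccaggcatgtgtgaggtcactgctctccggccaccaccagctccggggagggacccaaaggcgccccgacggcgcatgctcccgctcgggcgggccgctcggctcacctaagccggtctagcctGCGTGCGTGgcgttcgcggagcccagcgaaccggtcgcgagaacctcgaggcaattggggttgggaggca
Gys1: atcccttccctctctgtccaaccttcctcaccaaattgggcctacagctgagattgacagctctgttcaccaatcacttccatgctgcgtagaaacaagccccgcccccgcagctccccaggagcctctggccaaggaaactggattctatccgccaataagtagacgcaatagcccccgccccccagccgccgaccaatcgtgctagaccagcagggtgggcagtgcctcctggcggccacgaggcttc
P4ha1: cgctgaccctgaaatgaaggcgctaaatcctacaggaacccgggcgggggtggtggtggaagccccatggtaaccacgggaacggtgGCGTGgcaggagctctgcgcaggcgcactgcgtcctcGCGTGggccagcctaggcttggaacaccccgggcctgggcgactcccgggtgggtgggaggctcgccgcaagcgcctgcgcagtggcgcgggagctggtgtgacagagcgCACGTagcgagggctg

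The Ero1a window held GCGTG at -128 and -88 from the start and ACGTG on the opposite strand at -63. Ddit4 held ACGTG at -187 and GCGTG at -115, and Higd1a held GCGTG at -70 and, overlapping it, at -66. P4ha1 held GCGTG at -163 and -126 and ACGTG on the opposite strand at -16. Neither set of letters occurred in the Gys1 window, nor in that of Nfil3. Of the 9 genes with a window in the table (Kdm4b had none), 7 held a match, or 77.8%, against 11226 of 27025 genes (41.5%). Counted by windows, since a gene can have several starts, 11 of 14 held a match (78.6%) against 12679 of 32851 (38.6%). Windows 1 to 3 of Ak4 overlap and hold the same matches, so the windows are not independent of each other. A gene counted as holding a match if any of its windows did, and Ak4 had 4 windows and Mxi1 3. The members were grouped by their known response to hypoxia-inducible factors, so these shares are a description with no test and no independent check. A match is a run of letters and not a measured binding site, and no match says only that these letters are not in this window.

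The treated group was compared with non-treated cells to ask how these genes stood after the treatment. Ero1a, Gys1, Kdm4b, Ddit4, Nfil3 and Higd1a stood below 0 on all 4 arrays, by 0.35 to 0.92 in the mean, while Ak4, Mxi1 and P4ha1 scattered around 0. No gene passed the adjusted threshold: limma with Benjamini-Hochberg adjustment over all features called 0 of 15915 (0%), with 988 (6.21%) at an unadjusted p under 0.05. Of the members, 8 of 10 had a mean below 0, where 47.9% of all features did. An unadjusted p under 0.05 was found for 6 of 10, all below 0, where 3.1% of all features did so. Likewise 6 of 10 were below 0 on every array, against 7.59% of the features with 4 values. The median of the members was -0.35, against 0.009 over all features tested. Changing the sign of the Cy3 arrays, the other reading of the deposited signs, left 2 of 10 members below 0 and moved their median to 0.0985, and no member was called under either reading. Under that other reading the 6 members below 0 on every deposited array stood below 0 in Cy5 and above 0 in Cy3. These are bulk samples, so fewer cells of a type and less RNA per cell cannot be told apart.

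Ero1a is the oxidase of the endoplasmic reticulum that keeps protein disulphide isomerase oxidised, and P4ha1 is a catalytic subunit of collagen prolyl 4-hydroxylase. The Ero1a log ratio was -0.94, -0.86, -1.11 and -0.79 on treated replicates 1 to 4. All 4 arrays were low and close together, with both dyes alike. The mean was -0.92 ± 0.14 (SD, n = 4) and the limma standard error 0.11 (unadjusted p = 0.00117, adjusted p = 0.792), and only 138 of 15915 features (0.867%) had a lower value. P4ha1 gave 0.57, -0.98, 0.80 and 0.39, so replicate 2 alone was low and the mean of 0.20 ± 0.80 (SD, n = 4) was within the spread (adjusted p = 0.894). Without replicate 1, P4ha1 stood at -0.19, with the dye term then resting on 3 arrays.

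Gys1 makes glycogen in muscle and most other tissues, Ak4 is an adenylate kinase of the mitochondrial matrix, and Higd1a is a small protein of the inner mitochondrial membrane. Gys1 stood at -0.65, -0.63, -1.11 and -1.14 on the 4 treated arrays. All were low, and the arrays with the treated sample in Cy3 were lower than those with it in Cy5. Its mean was -0.88 ± 0.28 (SD, n = 4), with a limma standard error of 0.094 (unadjusted p = 0.000735, adjusted p = 0.792). Higd1a gave -0.38, -0.07, -0.53 and -0.42, a mean of -0.35 ± 0.20 (SD, n = 4, unadjusted p = 0.0349 in limma, adjusted p = 0.793). Its 2 probes differed in size, at -0.54 ± 0.22 and -0.16 ± 0.28 (SD, n = 4). Ak4, at 0.22, -0.02, -0.42 and -0.04, lay on both sides of 0.

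Ddit4, also called REDD1, restrains the growth kinase mTORC1. It gave -0.66, -0.07, -0.49 and -0.87, with replicate 2 near 0 and the others low (mean -0.52 ± 0.34, SD, n = 4; unadjusted p = 0.028 in limma, adjusted p = 0.793). Among the regulators of transcription, the bZIP repressor Nfil3 was narrow in spread, at -0.34, -0.21, -0.49 and -0.37 (mean -0.36 ± 0.12, SD, n = 4; unadjusted p = 0.0233 in limma, adjusted p = 0.793). Mxi1, a partner of MAX that opposes Myc, gave 0.42, 0.08, 0.26 and -0.24, which straddles 0.

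Kdm4b, which removes methyl groups from lysine 9 of histone H3, gave -0.18, -0.94, -0.67 and -0.70 as the mean of its probes (-0.62 ± 0.32, SD, n = 4; unadjusted p = 0.0195 in limma, adjusted p = 0.792). Its probes differed: the first averaged -1.04 ± 0.76 and was below 0 on all 4 arrays, while the second averaged -0.20 ± 0.58 and was below 0 on 3. The Kdm4b value thus rests mostly on the first probe. Narf, which binds the processed end of prelamin A, gave -0.26, -0.53, 0.21 and -0.63, with replicate 3 on the other side of 0.

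With the spread pooled over all 19 arrays in place of the 4 treated arrays alone, limma called 773 of 15915 features (4.86%), 2.43% of all below 0. In that fit Ero1a (adjusted p = 0.0238), Gys1 (adjusted p = 0.0173) and Kdm4b (adjusted p = 0.0032) passed, at the same values. Leaving both arrays in doubt out of the pooled fit, 718 features (4.51%) and 5 members passed: the same 3 with Ddit4 and Higd1a. The pooled spread may be too small for the treated arrays, whose SD over spots was 0.619 to 0.642 against 0.235 to 0.360 in the time course. The SD of Kdm4b was 0.32 on the treated arrays and 0.03 (23 h) to 0.18 (7 h) at the single times. The other genes called in the pooled fit of all 19 arrays did not share this. Ero1a had an SD of 0.14 on the treated arrays and 0.18 (12 h) to 0.61 (3 h) at the single times. Gys1 had 0.28 on the treated arrays and 0.10 (12 h) to 0.57 (23 h). The SDs at 7 h and 23 h include the arrays in doubt. The treated arrays on their own made no call.

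**Figure D1:**
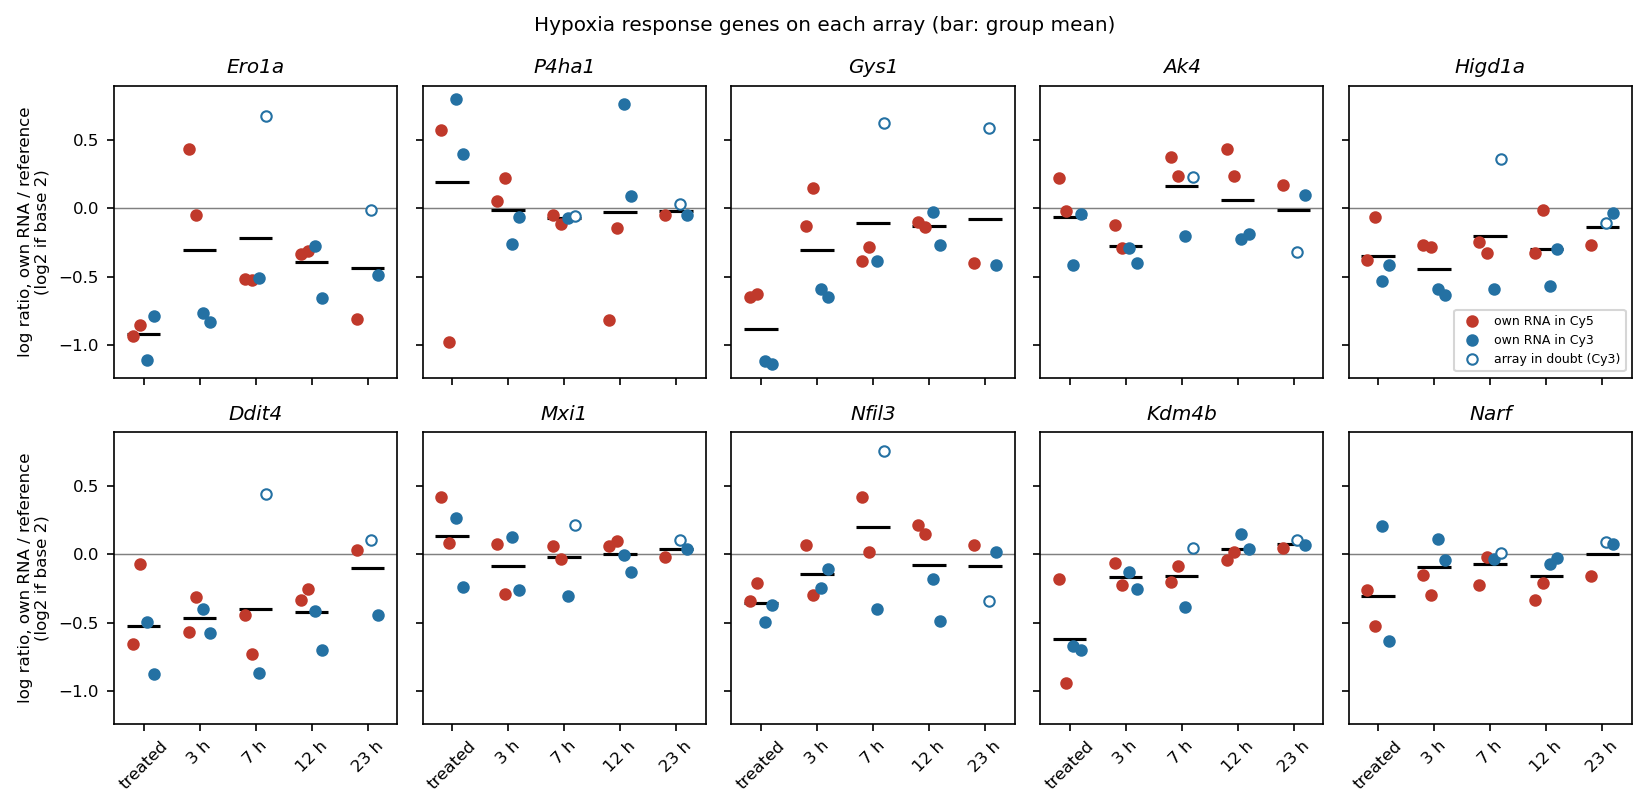
Log ratio (vertical axis, log2 if base 2) of each of the 10 genes on every array, by group along the horizontal axis; red points have the treated sample in Cy5, blue points in Cy3, open points are the arrays in doubt and bars are group means. Ero1a and Gys1 lie between -1.14 and -0.63 on all 4 treated arrays, and the open point at 7 h is above 0 for 9 of the 10 genes.

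**Figure D2:**
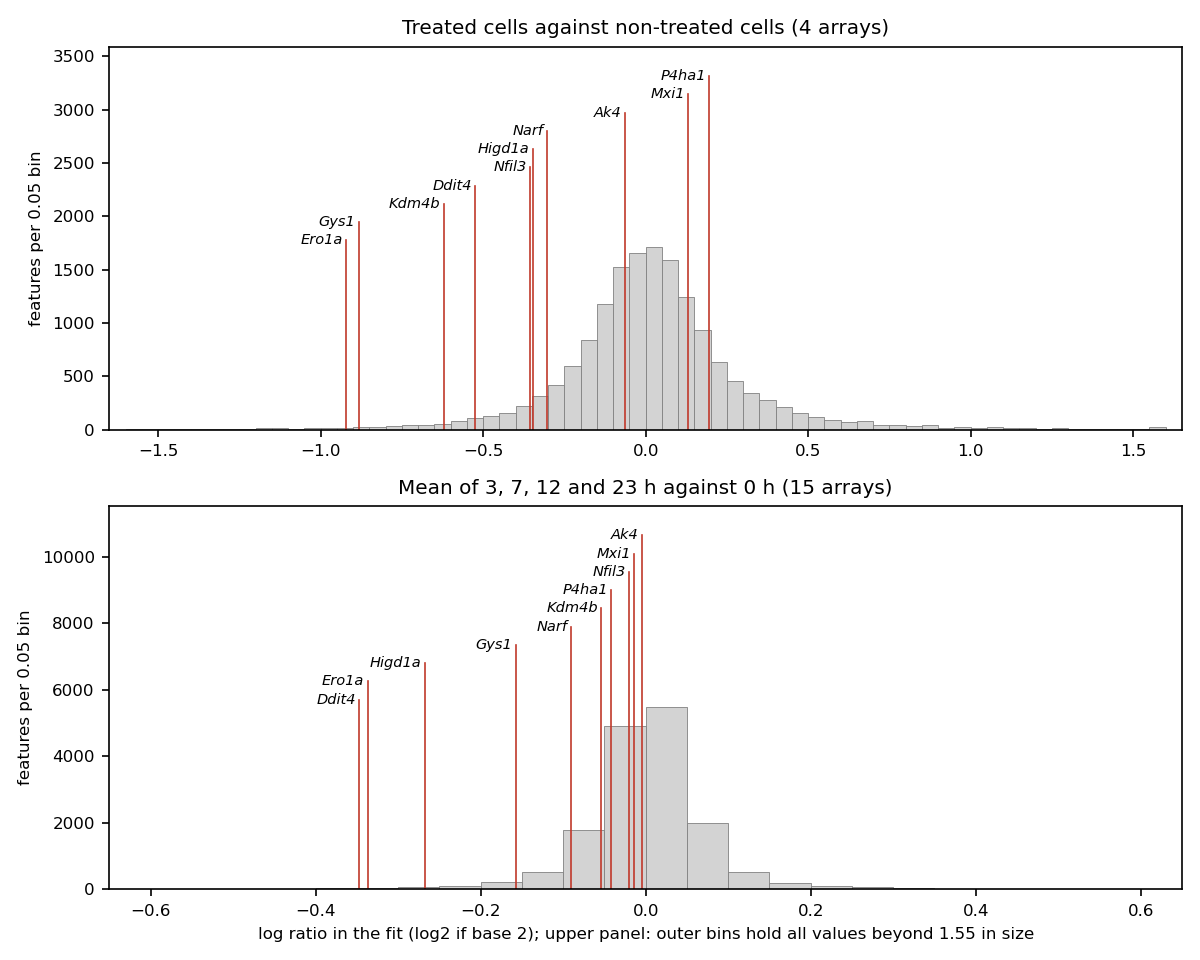
Number of features per bin of 0.05 (grey, vertical axis) against the fitted log ratio (horizontal axis, log2 if base 2), with a red line at the value of each of the 10 genes, whose heights only separate the names. Ero1a, at -0.92, and Gys1, at -0.88, lie in the lower tail of the treated comparison, and Ddit4, at -0.35, Ero1a, at -0.34, and Higd1a, at -0.27, in that of the mean over the 4 times.

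The other genes were taken from lists of HIF-responsive, glycolysis and core pathway genes. These lists were chosen with earlier results of these data known, so they are no independent check on the members. Of 30 HIF-responsive genes outside glycolysis that were tested, 23 stood below 0 after treatment (median -0.21); 8 had an unadjusted p under 0.05 below 0 and 0 above. Bnip3, which drives mitophagy, stood at -1.38 (limma SE 0.14), the stress-responsive Ndrg1 at -1.19 (SE 0.13), the selenium-binding Selenbp1 at -1.12 (SE 0.11) and the mitochondrial Fam162a at -0.73 (SE 0.099). Of 14 glycolysis genes, 12 were below 0 (median -0.39) and 9 had an unadjusted p under 0.05, all below. The glucose transporter Slc2a3 stood at -0.98, hexokinase Hk2 at -0.71, the enolase Eno3 at -0.53 and the aldolase Aldoa at -0.50. The pathway's own machinery was divided: 5 of 12 core genes were below 0, the median was 0.10, and the only gene with an unadjusted p under 0.05 was Egln1, the prolyl hydroxylase that senses oxygen, at -0.72 (SE 0.095). No gene of these lists passed the adjusted threshold.

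Ddit4 also answers to the integrated stress response, so genes of that pathway were read beside it. Of 17, 10 were below 0 in the treated cells (median -0.12); the asparagine synthetase Asns stood at 0.67, the chaperone Hspa5 at -0.37 and Atf4, the pathway's transcription factor, at -0.32, each with an unadjusted p under 0.05 and an adjusted p of 0.792 to 0.793 in limma. Of 6 measured neutrophil and monocyte markers, 4 were below 0, with means from -0.40 to 0.04 and a median of -0.23; the granule protease Elane, at -0.40, had the only unadjusted p under 0.05. Of 8 progenitor markers, 5 were below 0 (median -0.03), with the cytokine receptor chain Csf2rb at -0.37 (unadjusted p = 0.0291, adjusted p = 0.793 in limma). Of 5 pluripotency markers, 3 were below 0 (median -0.07) and none had an unadjusted p under 0.05. All 4 erythroid markers were below 0 (median -0.20, Klf1 lowest at -0.53), none with an unadjusted p under 0.05. The only lymphoid marker measured, Cd3g, stood at -0.36 (unadjusted p = 0.0324), and 5 of 8 fibroblast markers were below 0 (median -0.06), with Thy1 at 0.27 (unadjusted p = 0.0485). The part of these cell type markers in the members' values was not tested.

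The time course asked how the genes moved between 3 h and 23 h after tamoxifen. Averaged over the 4 times, all 10 members had a value below 0, where 47.7% of the features did, but most were small: Ddit4 stood at -0.35, Ero1a at -0.34, Higd1a at -0.27 and Gys1 at -0.16, and the other 6 between -0.09 and 0. In the fit of all 15 arrays limma called 0 of 16024 features (0%), with 1163 (7.26%) at an unadjusted p under 0.05 and 3.99% so and below 0. Of the members, 4 had an unadjusted p under 0.05, all below: Higd1a (SE 0.066, unadjusted p = 0.00136, adjusted p = 0.559), Ddit4 (SE 0.087, unadjusted p = 0.00152, adjusted p = 0.559), Narf (-0.09, SE 0.027, unadjusted p = 0.00552, adjusted p = 0.641) and Ero1a (SE 0.12, unadjusted p = 0.0134, adjusted p = 0.646). The members' median was -0.07 against 0.003 over all features.

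These calls turned on the arrays in doubt. Without 7 h replicate 4, limma called 69 of 16035 features (0.43%), among them Ddit4, which fell by 0.42 (adjusted p = 0.00352), and Higd1a, which fell by 0.32 (adjusted p = 0.00789). Without 23 h replicate 3 alone, 15 features (0.0939%) were called and no member was among them. Without both arrays, 354 of 15983 features (2.21%) were called, 1.38% of all below 0. An unadjusted p under 0.05 below 0 was then found for 6 members (6.45% of features), and 4 were called: Ddit4 fell by 0.45 (adjusted p = 0.000302), Higd1a by 0.33 (adjusted p = 0.0031), Gys1 by 0.31 (adjusted p = 0.0122) and Ero1a by 0.48 (adjusted p = 0.0162). The same 4 genes were called when the sign of both arrays was turned, with 533 features (3.33%) called in all. Of the arrays in doubt, only 7 h replicate 4 had an extreme value of the sign opposite to its dye. That of 23 h replicate 3 was -16.61, with the sign seen on other Cy3 arrays, so turning this array has no ground there. Turning it also lowers Gys1, which stood at 0.58 on it. With the sign of every Cy3 array changed instead, 5 of 10 members were below 0, the members' median was -0.00093 and no member was called.

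Higd1a was below 0 on more time course arrays (14 of 15) than any other member. Its log ratios were -0.27, -0.28, -0.59 and -0.64 at 3 h, then -0.25, -0.33, -0.59 and 0.36 at 7 h. At 12 h they were -0.33, -0.01, -0.57 and -0.30, and at 23 h -0.27, -0.11 and -0.04 on replicates 1, 3 and 4. It was below 0 on all 13 time course arrays not in doubt, as were 87 of 15730 features (0.553%), and above 0 on 7 h replicate 4. At 3 h its 2 probes stood at -0.24 ± 0.36 and -0.65 ± 0.043 (SD, n = 4), and the second was below 0 on all 4 arrays with little spread.

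Ddit4 gave -0.57, -0.32, -0.40 and -0.58 at 3 h, all low and close together. At 7 h it gave -0.44, -0.73, -0.87 and 0.44, with the last on the array in doubt, and at 12 h -0.33, -0.26, -0.42 and -0.70. At 23 h the values were 0.03, 0.10 and -0.44, so replicate 4 alone was low. Without both arrays in doubt the 7 h value of Ddit4 was -0.72 and passed in limma (adjusted p = 0.00845, where 0.478% of features passed). Its 23 h value, then from replicates 1 and 4 only, was -0.20 and did not pass.

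Ero1a gave 0.43, -0.05, -0.77 and -0.83 at 3 h. The arrays with the treated sample in Cy5 averaged 0.19 and those in Cy3 averaged -0.80. Dye and replicate numbers cannot be told apart here, since replicates 1 and 2 were in Cy5 and replicates 3 and 4 in Cy3. At 7 h it gave -0.51, -0.53, -0.51 and 0.68, 3 arrays within 0.02 of each other and the array in doubt far above them. At 12 h it gave -0.33, -0.31, -0.28 and -0.66 and at 23 h -0.81, -0.02 and -0.49, below 0 on every array at both times.

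Gys1 was divided likewise at 3 h, with -0.13 and 0.14 in Cy5 and -0.59 and -0.65 in Cy3. At 7 h it gave -0.39, -0.28, -0.39 and 0.62, the last on the array in doubt. At 12 h it was nearer 0, at -0.10, -0.14, -0.03 and -0.27. At 23 h it gave -0.40, 0.58 and -0.41, where the high value is the other array in doubt. Gys1 is thus the member whose mean over the times moved most without these arrays, from -0.16 to -0.31.

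The Kdm4b log ratio lay on different sides of 0 at the ends of the time course. It was below 0 on every array at 3 h (-0.07, -0.22, -0.13 and -0.25) and above 0 on every array at 23 h (0.05, 0.11 and 0.07). In between it gave -0.20, -0.09, -0.39 and 0.04 at 7 h and -0.04, 0.02, 0.15 and 0.04 at 12 h. The late times exceeded the early ones by 0.22 (limma SE 0.068, unadjusted p = 0.00646, adjusted p = 0.788), and the F test over the 4 times gave an adjusted p of 0.752. Kdm4b was the only 1 of the 10 members with an unadjusted p under 0.05 in the late against early contrast of all 15 arrays, above 0 like 3.41% of features. Without both arrays in doubt there were 4, all above 0 (5.16% of features): Kdm4b at 0.25, Ddit4 at 0.28, Higd1a at 0.21 and Ak4 at 0.20, with adjusted p from 0.346 to 0.503. Both Kdm4b probes were below 0 in the mean at 3 h and 7 h and above 0 at 12 h and 23 h.

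Ak4 was below 0 on all 4 arrays at 3 h (-0.12, -0.29, -0.29 and -0.40) and above 0 on 3 of 4 at 7 h (0.38, 0.23, -0.20 and 0.23). Its F test over times gave an unadjusted p of 0.0189 and an adjusted p of 0.750 in limma. At 12 h and 23 h its arrays lay on both sides of 0. No member passed the test for a difference between times, in which the shared reference cancels: 0 of 16024 features did (0%), with 1063 (6.63%) at an unadjusted p under 0.05, and for late against early 0 features (0%) with 986 (6.15%).

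The remaining genes stayed near 0 or scattered. Nfil3 ran from -0.49 to 0.75 over the 15 arrays, the highest being 7 h replicate 4, and was below 0 on 7. Mxi1 ran from -0.31 to 0.21 and was below 0 on 7. P4ha1 was tight at 7 h, at -0.05, -0.11, -0.07 and -0.06, but ran from -0.82 to 0.76 at 12 h, where Cy5 arrays were low and Cy3 arrays high. Narf was below 0 on every array at 12 h (-0.34, -0.21, -0.07 and -0.03), with a mean of -0.16 ± 0.14 (SD, n = 4; unadjusted p = 0.00778 in limma, adjusted p = 0.677).

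Read by time, all 10 members had a 3 h value below 0 (50% of features did), but 2 of 10 did when every Cy3 array had its sign reversed. With the deposited signs, 4 were below 0 on every array (10.5% of features), with 4 at an unadjusted p under 0.05 below 0 (5.07% of features): Ak4, Higd1a, Ddit4 and Kdm4b. At 7 h, 1 member, P4ha1, was below 0 on every array (6.82% of features), and 2 had an unadjusted p under 0.05 below 0 (3.62%): Ddit4 and Kdm4b. At 12 h, 5 were below 0 on every array (7.01%), namely Ero1a, Gys1, Higd1a, Ddit4 and Narf, and 3 had an unadjusted p under 0.05 below 0 (2.86%): Higd1a, Ddit4 and Narf. At 23 h no member had an unadjusted p under 0.05 below 0 (1.72% of features). In the fit without both arrays in doubt, the members with one numbered 5 at 3 h (6.07% of features), 5 at 7 h (4.62%), 4 at 12 h (3.73%) and 2 at 23 h (4.43%), the last being Ero1a and Gys1. The 23 h values of that fit rest on replicates 1 and 4 only. At 23 h, Ero1a and Higd1a were below 0 on all 3 arrays (9.42%) and Kdm4b above (10% of features). The members' median was -0.22 at 3 h, -0.09 at 7 h, -0.10 at 12 h and -0.05 at 23 h, and without the arrays in doubt -0.17 at 7 h and -0.05 at 23 h. With no centring of the arrays the 23 h median was 0.0205. At single times limma called 0 features (0%) at 3 h, 7 h and 23 h, where 1740 (10.8%), 1140 (7.09%) and 541 (3.36%) had an unadjusted p under 0.05. It called 3 (0.0186%) at 12 h, with 1005 (6.25%) at an unadjusted p under 0.05, and no member was among them.

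**Figure D3:**
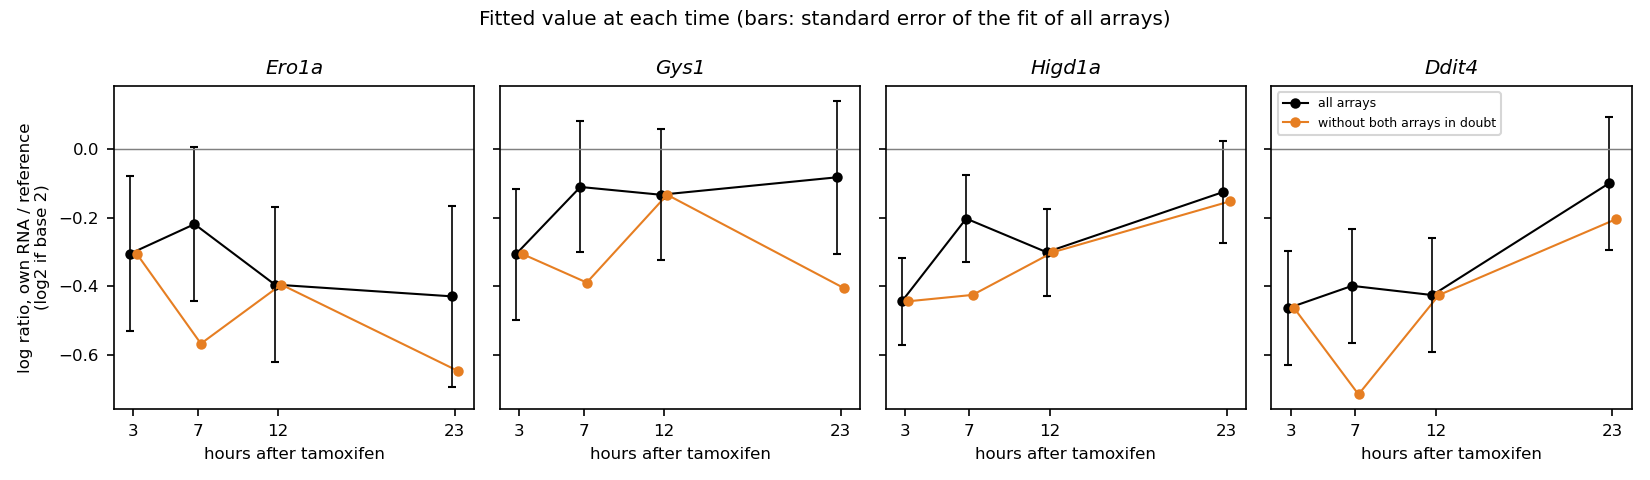
Fitted log ratio against 0 h (vertical axis, log2 if base 2) by hours after tamoxifen (horizontal axis) for Ero1a, Gys1, Higd1a and Ddit4, with all 15 arrays (black, bars are limma standard errors) and without both arrays in doubt (orange). The 7 h point of Ddit4 moves from -0.40 to -0.72 and the 23 h point of Gys1 from -0.08 to -0.41 when those arrays are left out. The orange points at 23 h rest on replicates 1 and 4 only.

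Over the times, the target and glycolysis lists had medians below 0 and the core machinery did not. Of 30 other HIF-responsive genes, 21 were below 0 in the mean of the 4 times (median -0.04), 10 had an unadjusted p under 0.05 below 0 and 1 above. Ndrg1 stood at -0.56, Bnip3 at -0.48, Selenbp1 at -0.39 and Fam162a at -0.31. Of 14 glycolysis genes, 12 were below 0 (median -0.18), 8 of them with an unadjusted p under 0.05, and Slc2a3 stood at -0.31, Aldoa at -0.30, Hk2 at -0.24 and Eno3 at -0.24. The core machinery had a median of 0.006, with 5 of 12 below 0 and none at an unadjusted p under 0.05. No gene of these lists passed the adjusted threshold in the fit of all arrays. Without both arrays in doubt, 8 of the 30 and 7 of the 14 were called, all below 0: Ndrg1 fell by 0.72 (adjusted p = 1.84e-05) and Aldoa by 0.40 (adjusted p = 0.000122). Of the core, Egln1 alone was called, below 0.

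Of 17 integrated stress response genes, 15 were below 0 in the mean of the times (median -0.11), with the amino acid transporter Slc7a5 at -0.29 and the transcription factor Xbp1 at -0.18 at an unadjusted p under 0.05. Of 6 neutrophil and monocyte markers, 5 were below 0, with means from -0.37 to 0.05 and a median of -0.15; the lysozyme Lyz2 stood at -0.37, Elane at -0.29 and the Fc receptor Fcgr3 at -0.10, each with an unadjusted p under 0.05. Without both arrays in doubt, 3 of the 6 were called below 0: Lyz2, which fell by 0.59, Elane, by 0.49, and Mpo; of the 17 stress response genes, 4 were: Atf4, Psat1, Slc7a5 and Trib3. The erythroid markers had 1 of 4 below 0 (median 0.06), the globin Hba-a1 at -0.19 (unadjusted p = 0.00341, adjusted p = 0.597 in limma). Of 8 progenitor markers, 5 were below 0 (median -0.01). The pan-leukocyte Ptprc stood at 0.12 (unadjusted p = 0.0195, adjusted p = 0.652 in limma), and without both arrays in doubt Csf2rb was called below 0. Whether these markers have a part in the members' values was not tested. The comparison of treated with non-treated cells has another reference, and its difference from the time course was not tested. Side by side, Ero1a stood at -0.92 there and -0.34 over the times, Gys1 at -0.88 and -0.16, Kdm4b at -0.62 and -0.05, Ddit4 at -0.52 and -0.35, and Higd1a at -0.35 and -0.27.

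To find genes of like pattern, each of 9173 genes with a value on all 19 arrays was correlated with the mean of the members, after removing the dye effect. The 5 most like were Selenbp2 (Pearson r = 0.92), the glycolytic mutase Pgam1 (0.89), the protease inhibitor Serpinb1a (0.87), Ndrg1 (0.86) and Slc2a3 (0.85). These are descriptions over arrays that share references and array processing. The members' mean was 0.33 on 7 h replicate 4, against -0.38 to -0.12 on the other 7 h arrays. The 5 correlations were 0.74 to 0.87 without 7 h replicate 4 and 0.83 to 0.92 without 23 h replicate 3. Over the 17 arrays not in doubt, Selenbp2 was still the gene most like the members (0.84), while Pgam1 came 6th (0.73), Slc2a3 17th (0.69), Ndrg1 22nd (0.68) and Serpinb1a 37th (0.67). Selenbp2 itself stood at -1.48 in the treated cells, -1.06 at 3 h, -0.25 at 7 h, -0.34 at 12 h and -0.09 at 23 h.

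Within the set, the correlation of each gene with the mean of the other 9 was highest for Gys1 (0.75), Ero1a (0.69), Higd1a (0.64), Kdm4b (0.63) and Nfil3 (0.62), and then Ddit4 (0.57). It was 0.29 to 0.32 for Mxi1, Ak4 and Narf and -0.17 for P4ha1. Over the 17 arrays not in doubt only Kdm4b (0.75) and Gys1 (0.55) stayed above 0.5, and Higd1a (0.17) and Ddit4 (0.08) were low. On these 17 arrays, Higd1a and Ddit4 thus lay nearly always below 0 but followed the other members little from array to array.

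**Figure D4:**
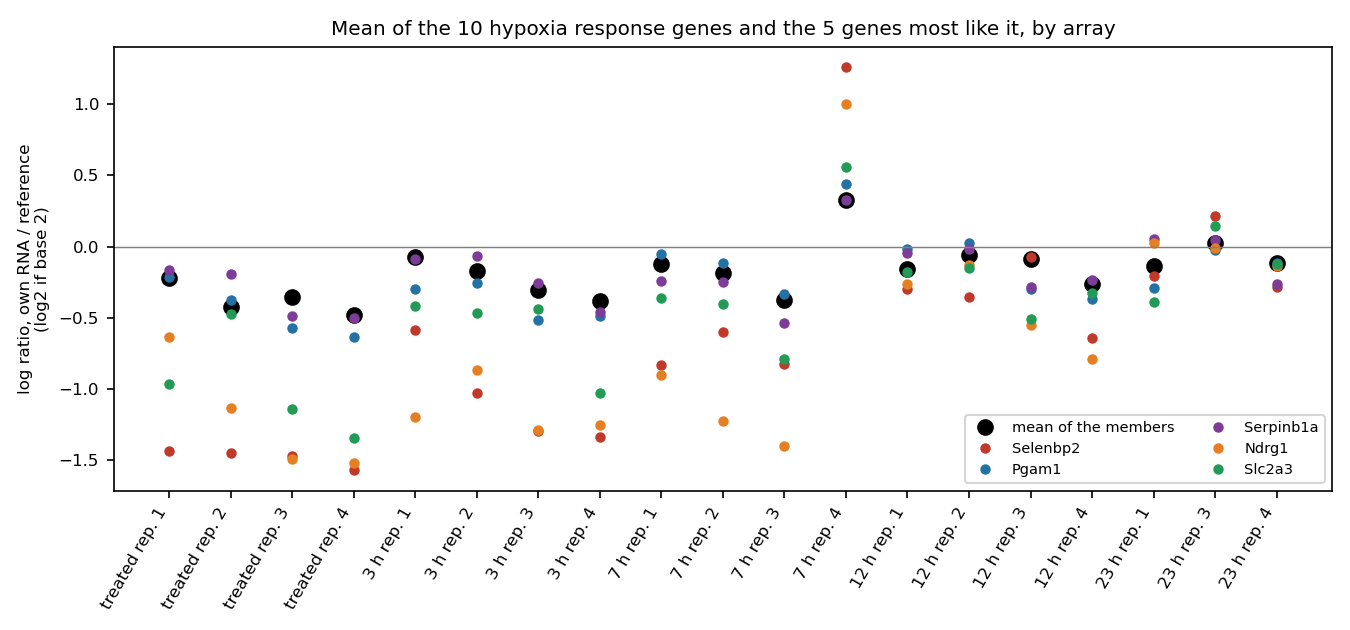
Log ratio (vertical axis, log2 if base 2) of the mean of the 10 genes (large black points) and of the 5 genes most like it (small coloured points) on each of the 19 arrays along the horizontal axis. All 6 lie above 0 on 7 h replicate 4 and below 0 on every treated and 3 h array.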

How the data were processed

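The authors deposited 1 log2 ratio per spot (read here as log2; its base, numerator and normalization: not given in the sources used here) for 19 arrays of 2 colours, and no intensities were used. Total RNA carried Cy3 or Cy5, according to the labels' protocols, which also speak of organs and control animals, unlike a cell line. The platform annotation gave 13891 probes 1 symbol, of which 13855 were found in RefSeq by gene ID; 5 probes had several symbols and 6309 were unnamed.

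Repeated extreme values (over 15 in size, at least 5 times on an array) were set to missing, arrays were centred on their median, and probes of a gene were averaged. Features needed values on 3 of 4 arrays, or 2 of 3, per group. Group means were tested against 0 in limma 3.58.1 (R 4.3.3) with a dye term, the treated arrays alone and the 15 time course arrays in 1 fit, with Benjamini-Hochberg adjustment over all features and a threshold of 0.05. The code was tested on simulated data. No column of sample values went unused.

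The genes and lists were chosen with earlier results of these data known. Named besides the 10 genes are, per list, up to 4 genes with the largest value among unadjusted p under 0.05, and the 5 genes most like the members' mean. Same-numbered arrays correlated by 0.03 on average (lowest -0.11, 21 pairs), and arrays of other numbers with the same dye by 0.05. The main fits therefore used no pairing by number. Number goes with dye, so these values cannot show that same-numbered arrays share no culture. Alternatives covered the signs, centring, normalization, filters, dye, replicate block, pooling and left-out arrays. Replicate 2 at 23 h was not analysed here.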

Additional observations from a re-analysis of the deposited data

Results flagged for a closer look

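On 7 h replicate 4, Ero1a stood at 0.677, far above the next value of -0.51, and Gys1 stood at 0.619, with the next at -0.282. This is the array whose repeated extreme value is positive although its treated sample was in Cy3. At 12 h, Ero1a stood at -0.657 on replicate 4, below the next value of -0.334. These are 3 of 40 groups of 4 arrays examined for an array far from the others, of which chance gives about 1 in 20. Kdm4b differed between times, by 0.239 from 3 h to 23 h: every array at 3 h was below 0 and every array at 23 h above it. The F test over the 4 times gave an adjusted p of 0.752 for Kdm4b in limma, so that difference did not pass.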

How the results depend on the processing

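Of 1430 member values under alternatives (the F test left out), 1301 kept their sign and their side of the threshold, 104 that passed under neither setting had the opposite sign, and 25 kept their sign and moved past the threshold; those calls came from pooling all arrays, from 7 h replicate 4 or from both arrays in doubt. Changing the sign of the Cy3 arrays turned 38 of 70 member values. The medians were then 0.0985 (treated), 0.0506 (3 h), -0.032 (7 h), 0.073 (12 h) and -0.063 (23 h). In that setting 2 features were called in the mean of the times, 2 for late against early and 1 in the F test. The treated median was -0.22 with arrays scaled to the same spread, and the 23 h median 0.0205 without centring. In the treated group, 773 features were called with all 19 arrays in 1 fit, 609 with the replicate block in that fit (the same 3 members) and 718 without both arrays in doubt. The replicate block changed no other call count beyond 1.5 times. Without both arrays in doubt, 16, 77, 42 and 59 features were called at 3 h, 7 h, 12 h and 23 h, 354 in the mean, 2 for late against early and 10 in the F test; with both signs turned these were 33, 203, 61, 129, 533, 22 and 21.

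The 3 features called at 12 h became 0 with extreme values kept, 0 with that time's arrays only, 9 with array weights and 12 without the filter; without the filter, 1 was called in the mean, 1 for late against early and 2 in the F test, and with quantile normalization 1 in the F test. Leaving out each replicate gave 0 to 13 calls at 7 h, 5 to 10 at 12 h, 0 to 1 at 23 h, 0 to 69 in the mean, 0 to 3 for late against early and 0 to 6 in the F test; the highest were without 7 h replicate 4 at 7 h and in the mean, without 12 h replicate 3 at 12 h and without 12 h replicate 2 in the F test. Member medians without each replicate ran from -0.42 to -0.35 (treated), -0.24 to -0.15 (3 h), -0.17 to -0.04 (7 h), -0.16 to -0.06 (12 h) and -0.05 to -0.01 (23 h). The cause of these moves was not tested. With no intensities, signal over background is unknown.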
